A study of Mus musculus with 7 samples.

Results

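The matrix metalloproteinases, ADAMs, ADAMTS proteinases, ADAMTS-like proteins and TIMPs form one system of matrix turnover, and their mRNA levels were followed here in the cortical bone of mice. The genes were taken by symbol (Mmp, Adam, Adamts or Adamtsl followed by a number, and Timp1 to Timp4), which gave 84 of the 27179 genes counted: 23 MMPs, 33 ADAMs, 19 ADAMTS, 5 ADAMTS-like genes and 4 TIMPs. RNA came from the femora of 12-week-old female mice of C57BL/6 background, with the bone ends cut off, the marrow flushed and the shaft snap frozen. In 3 Dmp1Cre.EfnB2f/f mice, Cre expressed from a 10-kb DMP1 promoter was meant to remove the floxed Efnb2 gene, which encodes the membrane-bound ligand EphrinB2, from late osteoblasts and osteocytes, while 4 Dmp1Cre mice, littermates or cousins that carry the same Cre without the floxed allele, served as controls. Each library stands for 1 mouse, and the mice were injected with calcein and fasted before collection. By parent cross, the mice fall into replicates 1 and 2 of Dmp1Cre.EfnB2f/f, controls 1 and 2, control 4 alone, and a mixed cross of replicate 3 with control 3.

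MMPs are zinc proteinases, secreted or held at the membrane, that cut collagens and other matrix proteins once their propeptide is removed. ADAMs are membrane proteinases that release the outer parts of receptors and ligands, several ADAMs being catalytically inactive adhesion molecules. ADAMTS proteinases are secreted and cut proteoglycans, procollagens and other large matrix proteins, and ADAMTS-like proteins share their matrix-binding domains but lack the proteinase. TIMPs are secreted proteins that block the active site of MMPs and, to differing degrees, of ADAMs and ADAMTS. In bone, osteoblasts and osteocytes are known for MMP13, MMP2 and MMP14, osteoclasts for MMP9, and neutrophils of the marrow for MMP8, MMP9 and MMP25.

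The counts summed to between 17245556 and 22075778 reads per library. Levels are normalized CPM, read counts set to library size after TMM scaling, and levels are compared between genes as CPM per kilobase of transcript. Group differences are log2 fold changes of the libraries labelled Dmp1Cre.EfnB2f/f over the controls from edgeR's quasi-likelihood test with their standard errors (SE), adjusted over 15084 genes. Efnb2 itself had 322, 239 and 224 reads in the libraries with the floxed label and 164, 139, 110 and 117 in the controls. These are 14.4 ± 3.24 CPM (SD, n = 3) beside 7.38 ± 1.08 CPM (SD, n = 4), higher in the libraries meant to lack it, so the libraries of Dmp1Cre.EfnB2f/f mice are called EfnB2f/f-labelled throughout, and every direction rests on the labels. The log2 fold change was 0.96 (SE 0.21, unadjusted p = 0.00160, adjusted p = 0.510 by edgeR). Every library with the floxed label lay above every control (exact permutation test, p = 0.0286). Since all exons were counted together, loss of a single exon is not seen apart. The study's own check of the deletion was a PCR across an exon boundary in sorted osteocytes of further mice, which is not analysed here. Of the cell type markers, the summed level of 9 neutrophil genes was 12474 to 15603 CPM in the EfnB2f/f-labelled libraries, and 17900 to 20980 CPM in the controls, that of 9 skeletal muscle genes 25743 to 38626 against 12391 to 26911 CPM, and that of 7 erythroid genes 4672 to 10591 against 11992 to 32841 CPM. The sum of 7 osteoblast genes was 72195 CPM in control 1 and 14332 to 35770 CPM in the other 6 libraries, and controls 1 and 4 stood apart from the other libraries on the first principal component, which held 53.8% of the variance.

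Of the 84 genes, 57 reached at least 0.65 CPM in at least 3 libraries and were tested: 17 MMPs, 15 ADAMs, 16 ADAMTS, 5 ADAMTS-like genes and 4 TIMPs. With 0 of the 57 at an adjusted p under 0.05, none passed the test. Over all genes tested the share was 0%. At an unadjusted p under 0.05 there were 7 of the 57, against 9.67% of all genes. Of these, 4 were higher in the EfnB2f/f-labelled libraries (4.64% of all genes), namely Mmp12, Adamts9, Adamts1 and Timp3, and 3 were lower (5.03% of all genes), namely Adam8, Mmp25 and Mmp8. Each of the 7 had an adjusted p of 0.510. The median log2 fold change over the 57 genes was 0.12, beside 0.01 over all genes. Counted by library, 4 genes (Timp3, Adamts9, Mmp12 and Adam11) lay higher in every EfnB2f/f-labelled library than in any control, a pattern that 5.03% of all genes had, and 3 (Adam8, Mmp25 and Adam19) lay lower, as did 6.3% of all genes.

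**Figure D1:**
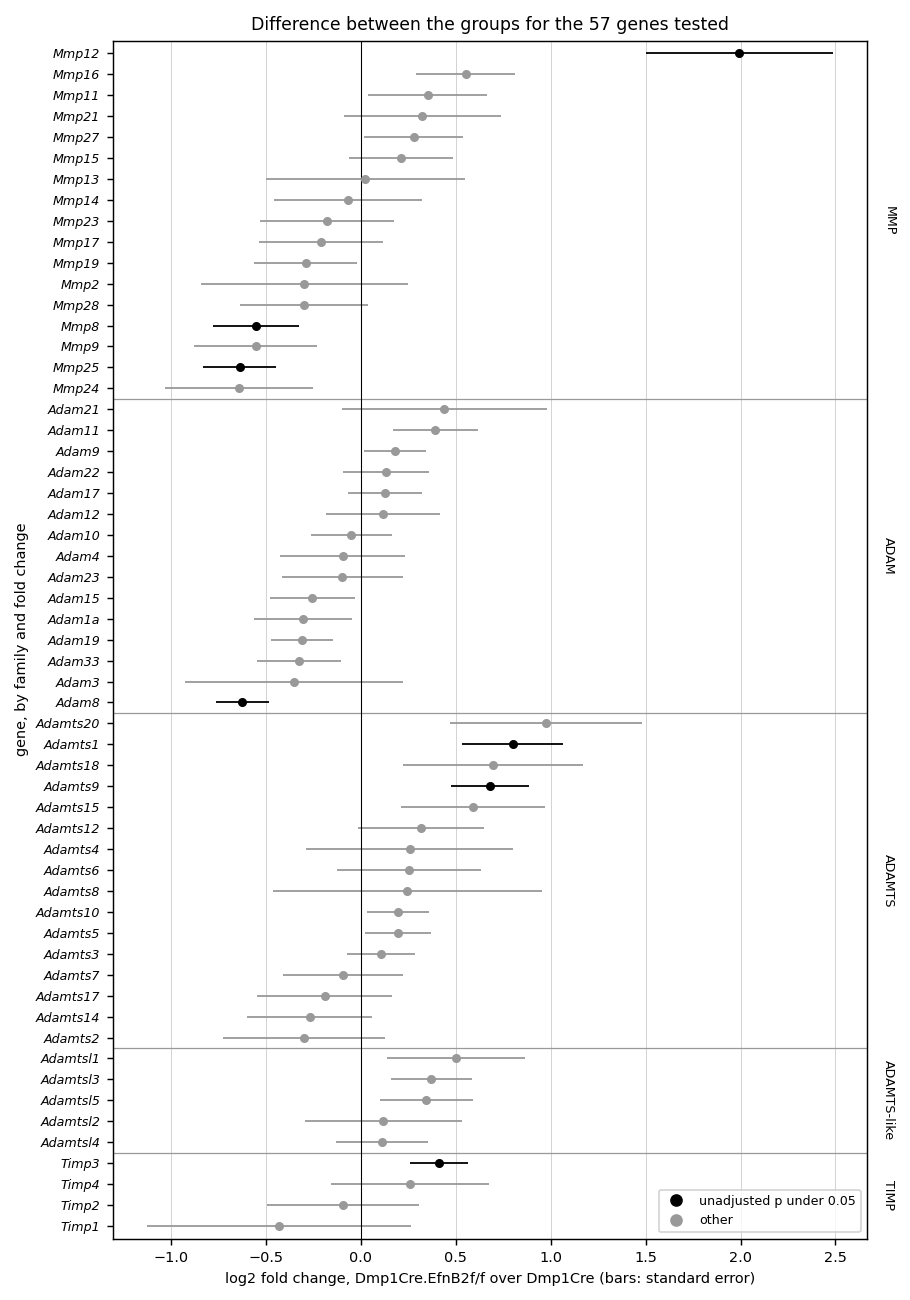
Log2 fold change of each of the 57 genes tested, EfnB2f/f-labelled libraries over Dmp1Cre, on the horizontal axis, with genes grouped by family and ordered by their value; bars are the standard error and black points have an unadjusted p under 0.05. The 7 black points are Mmp12, Adamts9, Adamts1 and Timp3 to the right of 0 and Adam8, Mmp25 and Mmp8 to the left, and all 7 proteoglycanase ADAMTS genes and all 5 ADAMTS-like genes lie to the right.

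Mmp9, Mmp8, Mmp13 and Mmp2 were the most abundant MMPs per kilobase. Averaged over all 7 libraries, Mmp9 had 245 ± 98.4 CPM per kilobase (SD, n = 7) and Mmp8 124 ± 33.6. Mmp13, at 59.2 ± 34.6, Mmp2, at 58.6 ± 39.8, and the inhibitor Timp3, at 54.2 ± 8.74 CPM per kilobase, followed and did not differ beyond their spread. Next in order were Timp2 (42.7 ± 19.8), Adam8 (40.1 ± 9.05), Mmp14 (38.4 ± 17.1), Adam10 (35.9 ± 6.42) and Adamts2 (28.8 ± 14.0 CPM per kilobase). Mmp9 alone made up 37.4% to 50.4% of the summed MMP level per kilobase in each library, Mmp8 13.5% to 33.2% and Mmp13 4.5% to 13.9%.

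**Figure D2:**
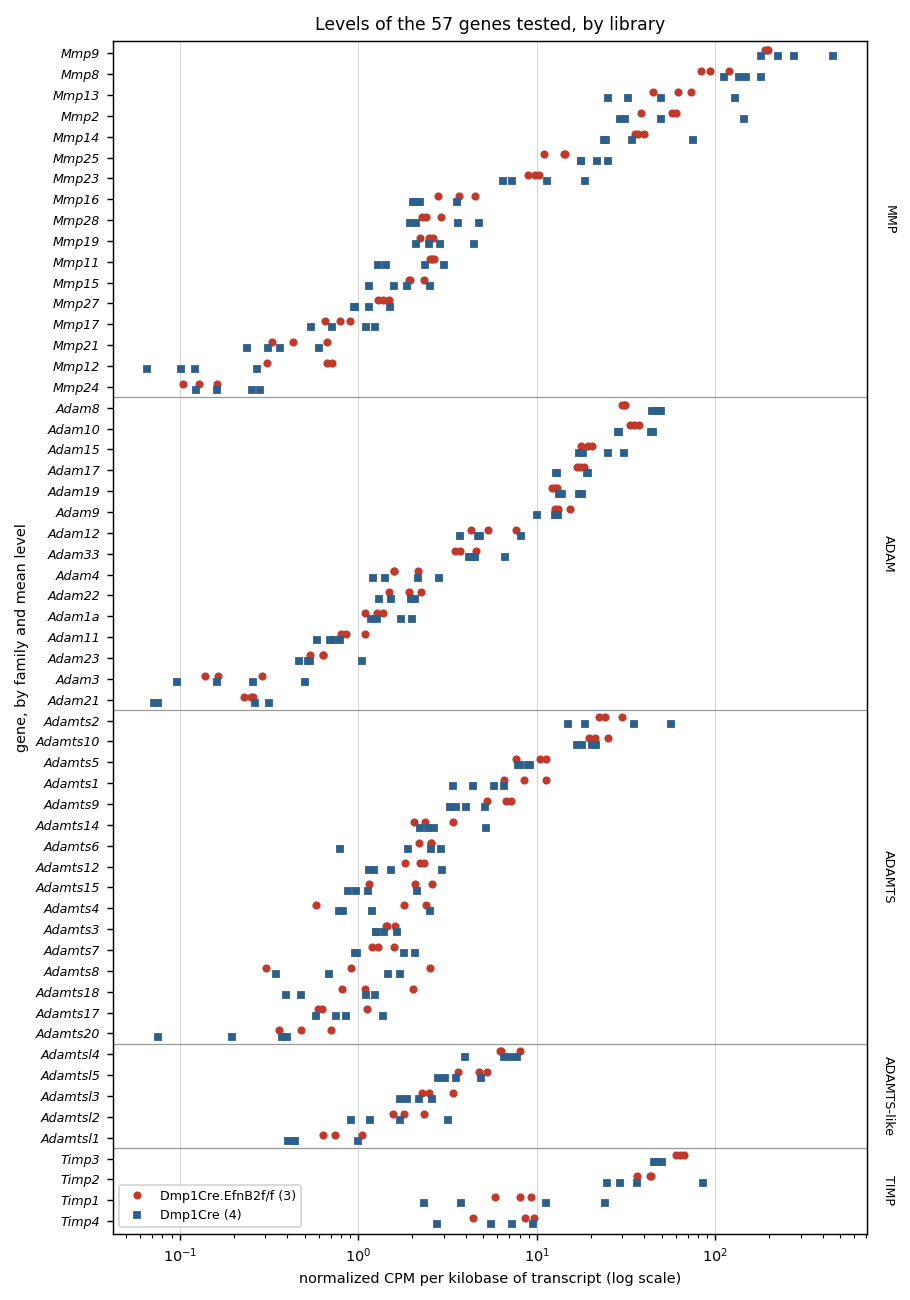
Level of each of the 57 genes tested in each library, in normalized CPM per kilobase on a logarithmic axis, with red circles for the 3 EfnB2f/f-labelled libraries and blue squares for the 4 Dmp1Cre libraries. The levels run from Mmp9 at a mean of 245 CPM per kilobase down to genes below 1, and in all but 7 rows the circles and squares overlap.

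A run of 10 MMP genes lies side by side on chromosome 9 of GRCm38 (chr9:7272514-7699585, 427 kb) in the order Mmp13, Mmp12, Mmp1b, Mmp3, Mmp1a, Mmp10, Mmp8, Mmp27, Mmp20 and Mmp7, with 0 other protein-coding genes among them. Their levels were far apart: over all 7 libraries Mmp8 had 38303 reads and Mmp13 20229, while Mmp27 had 259, Mmp12 147, Mmp3 88, Mmp1a 44, Mmp10 37, Mmp20 5, Mmp7 2 and Mmp1b 1. Only Mmp13, Mmp12, Mmp8 and Mmp27 reached the level needed for the test. The stretches before the starts of 6 of them are shown since they lie within one run of genes and yet hold different motif letters. They are the 130 bases upstream of the annotated start (RefSeq, GRCm38.p6), with capitals for motif matches. The AP-1 motif was searched as TGANTCA on both strands of the window. The core promoter motif was searched as TATAAA, on the strand of the gene alone. The RUNX motif was searched as TGTGGT on both strands, and in Mmp13 it stands on the opposite one. No matches overlap in the stretches shown, and for Mmp12 the downstream of its 2 annotated starts is shown. The 250 bases before its upstream start, where the gene begins, held none of these motifs.
Mmp13, chr9:7272384-7272513, plus strand: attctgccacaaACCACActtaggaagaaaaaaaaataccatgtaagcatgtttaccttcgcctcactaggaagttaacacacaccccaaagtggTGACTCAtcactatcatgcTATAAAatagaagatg
Mmp12, chr9:7347244-7347373, plus strand: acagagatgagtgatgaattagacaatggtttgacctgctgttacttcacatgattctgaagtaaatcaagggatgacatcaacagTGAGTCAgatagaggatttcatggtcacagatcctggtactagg
Mmp3, chr9:7445692-7445821, plus strand: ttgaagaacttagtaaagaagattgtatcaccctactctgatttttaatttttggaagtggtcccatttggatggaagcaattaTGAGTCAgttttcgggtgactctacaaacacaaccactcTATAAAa
Mmp1a, chr9:7464011-7464140, plus strand: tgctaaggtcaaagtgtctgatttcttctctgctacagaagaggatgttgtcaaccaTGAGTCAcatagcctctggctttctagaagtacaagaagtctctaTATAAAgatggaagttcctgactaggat
Mmp10, chr9:7502212-7502341, plus strand: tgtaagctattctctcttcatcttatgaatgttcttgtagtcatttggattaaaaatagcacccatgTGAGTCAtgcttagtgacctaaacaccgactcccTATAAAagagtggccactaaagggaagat
Mmp8, chr9:7558299-7558428, plus strand: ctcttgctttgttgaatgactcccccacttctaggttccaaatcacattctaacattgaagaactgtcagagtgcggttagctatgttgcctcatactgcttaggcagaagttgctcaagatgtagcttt
In the 250 bases upstream, 8 of the 10 neighbours held the AP-1 letters (Mmp12 only before its downstream start), and 7 of the 10 held both these and the TATA box. Of all 32851 promoters listed by the reference, 6.75% held the AP-1 letters and 7.59% the TATA letters, and of the other 43 genes of these families with a listed promoter 4 held each. Mmp8, whose mRNA was the most abundant of the run, held none of the 3 motifs, and Mmp27 held the RUNX letters alone. RUNX letters were in 14.0% of all promoters. In the run they were in Mmp13, Mmp1b, Mmp27 and Mmp7. For Mmp7 they stood only before the downstream of its 2 annotated starts, and its AP-1 and TATA letters before the upstream one. Near the start of Mmp13 the AP-1 match lies at positions -35 to -29, the TATA box at -16 to -11 and the RUNX match at -118 to -113, counted from the base before the start as -1. These matches describe letters in a window and not sites in use.

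Mmp13, the main collagenase of osteoblasts and osteocytes in the mouse, had 165, 195 and 120.2 CPM in the EfnB2f/f-labelled libraries, and 343, 132, 86.2 and 66.6 CPM in the controls. Control 1 was the highest of all libraries, control 4 the lowest, and the other group lay between them. In log2 terms the difference was 0.02 (SE 0.52, adjusted p = 0.986 by edgeR), and it was 0.75 without control 1 and -0.23 without control 4. Mmp8, the neutrophil collagenase (chr9:7558429-7568486), had 202, 292 and 228 CPM in the EfnB2f/f-labelled libraries, and 332, 443, 363 and 274 CPM in the controls. Replicate 2 was above control 4, so the groups overlapped by that pair of libraries alone. As a log2 fold change this was -0.55 (SE 0.23, unadjusted p = 0.0387, adjusted p = 0.510 by edgeR). Mmp8 was no longer at an unadjusted p under 0.05 with library totals as the scale, with parent cross as a term, or without replicate 1, replicate 3, control 1, control 2 or control 3.

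Mmp12, the macrophage elastase, was at the low end of the level range and showed the widest group difference of the 57 genes. It had 46, 20 and 45 reads in the EfnB2f/f-labelled libraries, and 7, 17, 4 and 8 in the controls. In CPM these were 2.58, 1.11 and 2.40 against 0.366, 0.980, 0.237 and 0.439, so that replicate 2 lay only just above control 2. This gave a log2 difference of 1.99 (SE 0.49, unadjusted p = 0.00316, adjusted p = 0.510 by edgeR). The exact permutation test of the difference of means gave p = 0.0286, the smallest that 3 against 4 libraries allow. Here and below that test is given only for genes whose groups did not overlap, so a low p largely follows from that choice. Over the alternatives the log2 fold change of Mmp12 ran from 0.80 in the limma pipeline, where its adjusted p was 0.237, to 3.30 with parent cross as a term. The summed level of 8 monocyte and macrophage markers was 1209 to 1346 CPM in the EfnB2f/f-labelled libraries, and 1253 to 1779 CPM in the controls, with 7 of the 8 at a negative log2 fold change. In the annotation the exons of Mmp12 share 157 bases, 2.17% of their length, with Mmp1b on the other strand, and Mmp1b had 1 read in all libraries together. The neighbours that were not tested were also scattered: Mmp3 had 53 of its 88 reads in control 1, and Mmp1a 26 of its 44 in replicate 1 of Dmp1Cre.EfnB2f/f.

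The gelatinases Mmp2 and Mmp9 cut denatured collagen and basement membrane collagen. Mmp9 had 610.1, 615 and 597 CPM in the EfnB2f/f-labelled libraries, and 1430.0, 701, 564 and 868 CPM in the controls. The 3 EfnB2f/f-labelled libraries lay close together (607 ± 9.24 CPM, SD, n = 3) and the controls far apart (891 ± 381 CPM, SD, n = 4), with control 3 below all of the former. The log2 fold change of Mmp9 was -0.55 (SE 0.32, adjusted p = 0.527 by edgeR), and -0.23 without control 1. Mmp2, made by bone and stromal cells, had 117, 173 and 183 CPM in the EfnB2f/f-labelled libraries, and 439.6, 88.4, 94.9 and 151 CPM in the controls. Control 1 was again the highest library, and controls 2 and 3 were below each library of the other group. Its log2 fold change of -0.30 (SE 0.55, adjusted p = 0.809 by edgeR) became 0.50 without control 1.

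All 6 membrane-type MMPs were tested. Mmp14, which activates MMP2 at the cell surface and cuts collagen, was the most abundant, with 95.6, 104 and 92.0 CPM in the EfnB2f/f-labelled libraries, and 194, 63.1, 61.5 and 88.8 CPM in the controls. Were it not for control 1 the groups would not overlap, and the log2 fold change of -0.07 (SE 0.39, adjusted p = 0.946 by edgeR) became 0.45. It was also 0.03 when the libraries were scaled to their totals alone. Mmp25, a membrane-anchored MMP of neutrophils, had 36.9, 48.0 and 48.4 CPM in the EfnB2f/f-labelled libraries, and 73.4, 59.5, 59.4 and 84.0 CPM in the controls. Each control was above each library of the other group (exact permutation test, p = 0.0286), with a log2 difference of -0.64 (SE 0.19, unadjusted p = 0.00918, adjusted p = 0.510 by edgeR). The value was -0.41 in the limma pipeline and -0.30 with parent cross as a term, and Mmp25 was not among the genes at an unadjusted p under 0.05 with either the parent cross or the replicate number as a block. The other 4 (Mmp15, Mmp16, Mmp17 and Mmp24) had log2 fold changes of -0.64 to 0.55, with 0 of 4 at an unadjusted p under 0.05. Among the remaining MMPs, Mmp23 was the most abundant, at 10.4 ± 3.97 CPM per kilobase (SD, n = 7), and Mmp11, a stromelysin, Mmp19, Mmp21, Mmp27 and Mmp28 had mean levels of 0.42 to 2.85 CPM per kilobase.

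Among the ADAMs, Adam8 stood out. Adam8, a sheddase of myeloid cells including neutrophils and osteoclast precursors, had 94.8, 90.6 and 93.8 CPM in the EfnB2f/f-labelled libraries, and 150.0, 133, 142 and 149 CPM in the controls. The spread within each group was small (93.1 ± 2.23 CPM, SD, n = 3, beside 143 ± 7.72 CPM, SD, n = 4) and the groups lay apart by more than that spread. It had the lowest p of the 57 genes, with a log2 difference of -0.62 (SE 0.14, unadjusted p = 0.00167, adjusted p = 0.510 by edgeR), and the exact permutation test gave p = 0.0286. The log2 fold change ranged from -0.66 to -0.54 over all 16 alternative settings, and the adjusted p from 0.000536 in DESeq2 to 1. Adam8 was the 1 gene of the 57 with an adjusted p under 0.05 in DESeq2, which called 0.477% of all genes.

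The sheddases Adam10 and Adam17, which release the outer parts of Notch receptors, of TNF and of ephrin ligands among others, had overlapping groups. Adam10 had 172, 152 and 160.2 CPM in the EfnB2f/f-labelled libraries, and 131, 200.2, 204 and 133 CPM in the controls. Controls 1 and 4 were below, and controls 2 and 3 above, every library of the other group. Adam17 had 76.9, 74.0 and 80.6 CPM in the EfnB2f/f-labelled libraries, and 57.5, 84.1, 84.9 and 56.1 CPM in the controls, the same pattern. Their log2 fold changes were -0.05 (SE 0.21, adjusted p = 0.920) and 0.13 (SE 0.20, adjusted p = 0.774 by edgeR). In GENCODE, Adam17 shares 4.35% of its exon bases with Iah1 on the other strand. Without strand, reads from such shared bases cannot be told apart. Counting used another annotation, so whether these bases were counted is not known.

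Adam15, an adhesion and sheddase protein of the vessel wall and many other cells, had 52.9, 57.6 and 61.0 CPM in the EfnB2f/f-labelled libraries, and 91.7, 54.3, 51.4 and 75.3 CPM in the controls. Here controls 1 and 4 were the high ones, and the log2 fold change was -0.25 (SE 0.22, adjusted p = 0.632 by edgeR). Adam19, which sheds neuregulin, had 77.4, 82.5 and 80.5 CPM in the EfnB2f/f-labelled libraries, and 109.9, 88.4, 84.5 and 114 CPM in the controls. The groups did not overlap (exact permutation test, p = 0.114), but control 3 was only just above replicate 2. The log2 fold change was -0.31 (SE 0.16, adjusted p = 0.517 by edgeR). Adam11, an inactive member known from the nervous system, was the 1 ADAM with every EfnB2f/f-labelled library above the controls, at 5.56, 4.38 and 4.10 CPM against 2.98, 4.04, 3.55 and 3.68 CPM. The margin between replicate 3 and control 2 was small (exact permutation test, p = 0.0286), and the log2 fold change was 0.39 (SE 0.22, adjusted p = 0.524 by edgeR). Adam15 shares 20.6% and Adam19 8.25% of its exon bases with an antisense gene (4731419I09Rik and Gm16033).

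Of the other tested ADAMs, Adam9 was the most abundant, at 12.8 ± 1.58 CPM per kilobase (SD, n = 7). The 15 tested ADAMs had 6 positive and 9 negative log2 fold changes, with a median of -0.10. The 18 ADAMs that were not tested are mostly known from the testis, and none had more than 51 reads in all 7 libraries together. For near-identical copies such as Adam6a and Adam6b, Adam26a and Adam26b, or Mmp1a and Mmp1b, the split of the reads is uncertain, and Adam1a shares 63.7% of its exon bases with Gm42878 on its own strand.

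The 4 genes known from neutrophils, Adam8, Mmp25, Mmp8 and Mmp9, had log2 fold changes of -0.62, -0.64, -0.55 and -0.55. For Mmp8 and Mmp9 the groups overlapped, and Mmp9, also known from osteoclasts, was at -0.23 without control 1. The 9 neutrophil markers (Elane, Mpo, Prtn3, Ltf, Camp, Ngp, S100a8, S100a9 and Retnlg) were measured beside these 4 genes. Their log2 fold changes were negative for 9 of 9, with a median of -0.50 and 2 at an unadjusted p under 0.05 (5.03% of all genes were lower at that threshold). Their summed level did not overlap between the groups, and none of the markers was at 0 in all libraries. As single genes only Ltf, Ngp and S100a8 did not overlap, a pattern that 6.3% of all genes had in this direction. S100a9 was lower in control 1 (3232 CPM) and control 4 (3367 CPM) than in every EfnB2f/f-labelled library (3435 CPM or more). The part of neutrophil RNA in these differences was not tested. In whole bone, fewer cells of a type and less RNA per cell cannot be told apart.

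**Figure D3:**
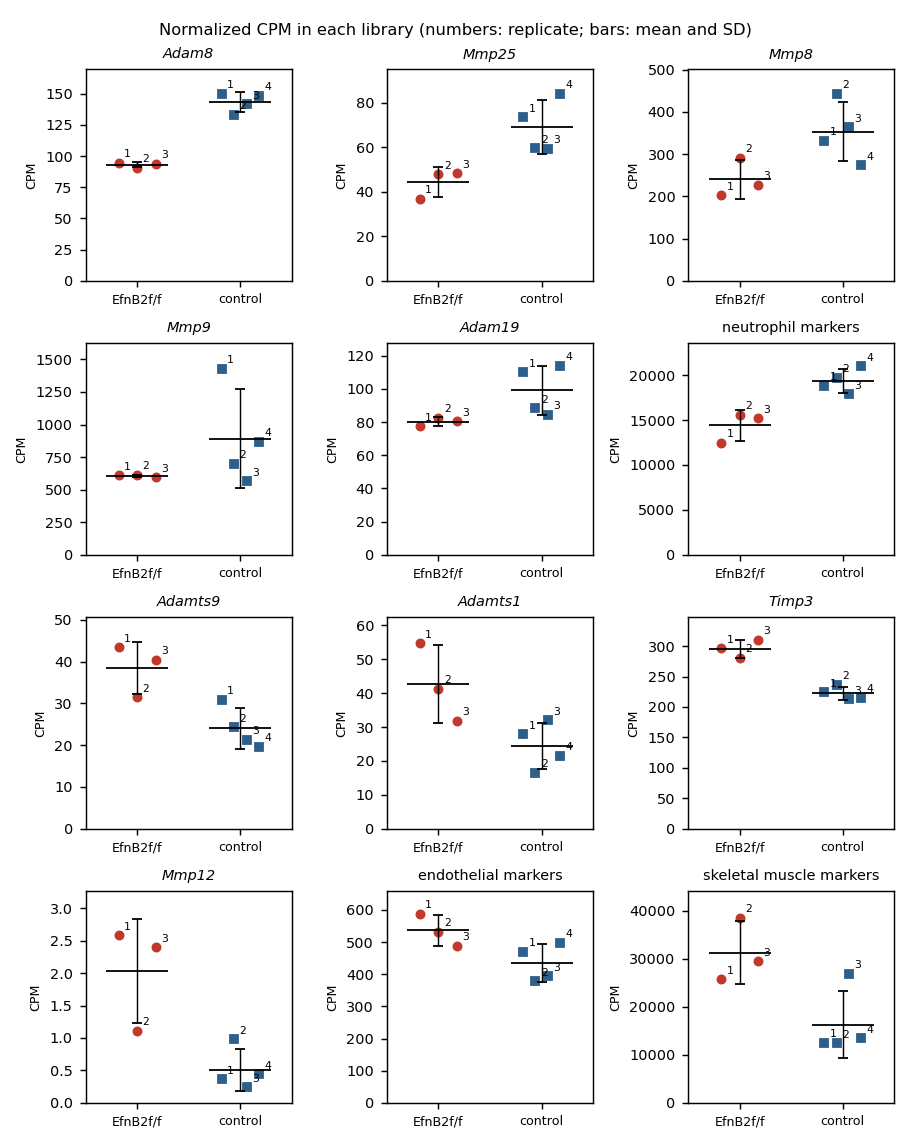
Normalized CPM in each library for 9 genes and 3 summed marker lists, with red circles for the 3 EfnB2f/f-labelled libraries, blue squares for the 4 Dmp1Cre libraries, replicate numbers beside the points, and the mean and SD in black. Adam8 and Mmp25 separate the groups as the neutrophil marker sum does (12474 to 15603 against 17900 to 20980 CPM), Timp3 and Adamts9 are higher in each EfnB2f/f-labelled library, and in Mmp9 control 1 lies far above the rest.

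The proteoglycanase ADAMTS genes, whose products cut aggrecan and versican, all had positive log2 fold changes, as did the ADAMTS-like genes. The 7 genes (Adamts1, Adamts4, Adamts5, Adamts8, Adamts9, Adamts15 and Adamts20) had a median of 0.59. At an unadjusted p under 0.05, 2 of them were higher, against 4.64% of all genes. With parent cross as a term in the fit 4 of the 7 were positive, and 6 of the 7 were in the limma pipeline, with the replicate number as a block, and without replicate 1, replicate 3 or control 4. Of all genes tested, 7743 of 15084 had a positive value. In the genome Adamts1 and Adamts5 are neighbours on chromosome 16 (chr16:85793827-85803113 and chr16:85858157-85901125), and Adamts15 and Adamts8 on chromosome 9 (chr9:30899155-30922452 and chr9:30942562-30963838).

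Adamts9, a proteinase of versican that is made by blood vessel cells among others, had 43.5, 31.5 and 40.5 CPM in the EfnB2f/f-labelled libraries, and 30.8, 24.3, 21.3 and 19.6 CPM in the controls. Replicate 2 and control 1 lay next to each other at the border of the groups, which did not overlap (exact permutation test, p = 0.0571). The fitted log2 fold change was 0.68 (SE 0.20, unadjusted p = 0.00917, adjusted p = 0.510 by edgeR), with 0.49 to 0.93 over the alternatives. Adamts1, an early-response gene that also cuts versican and aggrecan, had 54.8, 41.3 and 31.8 CPM in the EfnB2f/f-labelled libraries, and 28.0, 16.5, 32.0 and 21.5 CPM in the controls. The groups met at replicate 3 and control 3, the 2 mice of the shared parent cross, with 31.8 and 32.0 CPM. In log2 terms the difference was 0.80 (SE 0.27, unadjusted p = 0.0159, adjusted p = 0.510 by edgeR) but -0.0049 with parent cross as a term in the fit. For Adamts9 the same mice had 40.5 CPM in replicate 3 and 21.3 CPM in control 3. Adamts9 shares 9.18% of its exon bases with A730049H05Rik on the other strand.

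Adamts5, the main aggrecanase of mouse cartilage, was the most abundant of these genes, with 90.8, 83.9 and 61.7 CPM in the EfnB2f/f-labelled libraries, and 65.2, 63.4, 72.7 and 74.3 CPM in the controls. Replicate 3 was the lowest of all 7 libraries and replicates 1 and 2 the highest, and the log2 fold change was 0.19 (SE 0.17, adjusted p = 0.635 by edgeR). The remaining 4 had lower levels and wide scatter, with log2 fold changes of 0.25 to 0.98. Their substrates were measured too: Acan, the aggrecan core protein, had 1.46 to 16.4 CPM in the EfnB2f/f-labelled libraries, and 1.27 to 79.2 CPM in the controls, highest in control 1. Vcan, the versican core protein, had 45.8, 50.2 and 30.2 CPM in the EfnB2f/f-labelled libraries, and 63.9, 57.2, 65.3 and 24.3 CPM in the controls, so the groups overlapped through control 4 (log2 fold change -0.32, SE 0.34, adjusted p = 0.679 by edgeR). Beside these genes, 7 endothelial markers summed to 489 to 588 CPM against 378 to 498 CPM, with 3 of 7 higher at an unadjusted p under 0.05. Of the 9 muscle markers, 9 had positive log2 fold changes and 4 an unadjusted p under 0.05. Among all genes tested, 4.64% were higher at that threshold. The part of these cell types in the ADAMTS differences was not tested.

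The procollagen N-proteinases remove the amino propeptide of fibrillar procollagens. Adamts2, the most abundant ADAMTS gene, had 83.1, 90.1 and 113 CPM in the EfnB2f/f-labelled libraries, and 212, 69.3, 55.7 and 132 CPM in the controls. As with Mmp2 and Mmp14, control 1 was the highest and controls 2 and 3 were below each library of the other group. Its log2 difference of -0.30 (SE 0.43, adjusted p = 0.758 by edgeR) became 0.15 without control 1. Adamts3 and Adamts14 had mean levels of 1.43 and 2.91 CPM per kilobase and log2 fold changes of 0.11 and -0.27. Adamts13, Adamts16 and Adamts19 were not tested, with 55, 22 and 6 reads in all.

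Adamts10, which binds fibrillin microfibrils, had 79.4, 86.5 and 102 CPM in the EfnB2f/f-labelled libraries, and 87.7, 82.5, 68.4 and 72.4 CPM in the controls. The groups overlapped, with a log2 difference of 0.20 (SE 0.16, adjusted p = 0.609 by edgeR). Adamtsl4, a microfibril-binding ADAMTS-like protein, had 31.1, 23.9 and 24.3 CPM in the EfnB2f/f-labelled libraries, and 29.8, 25.4, 27.4 and 15.3 CPM in the controls. Only control 4 stood off from the other libraries, and the log2 fold change was 0.11 (SE 0.24, adjusted p = 0.840 by edgeR). All 5 ADAMTS-like genes had positive log2 fold changes, from 0.11 to 0.50 with a median of 0.35, with 0 of 5 at an unadjusted p under 0.05. Of the 5, 3 were positive without replicate 1 of Dmp1Cre.EfnB2f/f, and 4 in the limma pipeline, with either block, and without control 2, 3 or 4.

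Of the inhibitors, Timp3 was the most abundant and had the narrowest range over the libraries, 1.46-fold. Timp3, which stays bound to the matrix and blocks MMPs, ADAM17 and ADAMTS aggrecanases, had 297, 281 and 310.3 CPM in the EfnB2f/f-labelled libraries, and 225, 236, 213 and 215 CPM in the controls. The groups were well apart (296 ± 14.8 CPM, SD, n = 3, beside 222 ± 10.5 CPM, SD, n = 4, exact permutation test, p = 0.0286), and the 2 mice of the shared cross had 310.3 and 213 CPM. This gave a log2 difference of 0.41 (SE 0.15, unadjusted p = 0.0260, adjusted p = 0.510 by edgeR), with values between 0.38 and 0.54 in all alternatives. Timp3 shares 21.3% of its exon bases with Syn3 on the other strand.

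Timp2, which blocks MMPs and also takes part in the activation of MMP2 by MMP14, had 132, 159 and 157 CPM in the EfnB2f/f-labelled libraries, and 307, 106, 89.9 and 133 CPM in the controls. Timp1, an inducible inhibitor, had 5.17, 7.15 and 8.20 CPM in the EfnB2f/f-labelled libraries, and 21.4, 3.34, 2.07 and 10.1 CPM in the controls. Both were highest in control 1 and lowest in control 3. Their log2 fold changes, -0.09 (SE 0.40, adjusted p = 0.922) and -0.43 (SE 0.69, adjusted p = 0.782 by edgeR), became 0.44 and 0.40 without control 1. Timp4, an inhibitor known from heart, muscle and fat, had 13.6, 12.1 and 6.18 CPM in the EfnB2f/f-labelled libraries, and 10.3, 7.84, 13.4 and 3.90 CPM in the controls. The groups overlapped widely (log2 fold change 0.26, SE 0.42, adjusted p = 0.780 by edgeR), and in the shared cross control 3 was above replicate 3. With parent cross as a term, Timp4 and Mmp12 were the 2 of the 57 genes at an unadjusted p under 0.05, against 2.05% of all genes, and the log2 fold change of Timp4 was then -1.12. Timp3 was thus the 1 inhibitor of the 4 whose groups did not overlap.

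Control 1 was the highest library for 24 of the 57 genes, or 42.1%, against 14.0% of all genes tested. These included Mmp9, Mmp13, Mmp2, Mmp14, Adamts2, Timp1 and Timp2. Control 3 was the lowest for 18 (31.6%, against 13.4% of all genes) and control 4 for 17 (29.8%, against 24.0% of all genes). Control 1 also had the highest summed level of the osteoblast, osteocyte (628 CPM, against 158 to 505 in the other libraries), osteoclast (1254 against 207 to 652 CPM), chondrocyte (895 against 152 to 545 CPM) and tendon and periosteal fibroblast markers (928 against 268 to 531 CPM), and none of these markers was at 0 in all libraries. In control 1 most of the osteoblast sum was Col1a1 (38700 CPM) and Col1a2 (31131 CPM), and most of the chondrocyte sum Col2a1 (793 CPM). Not every marker followed its sum: Ibsp, Phex, Fgf23, Calcr, Atp6v0d2, Col10a1, Matn1 and Pi16 were highest in another library. The part of these cell types in the levels was not tested. Without control 1, 14 of the 57 genes had an unadjusted p under 0.05, 12 of them higher in the EfnB2f/f-labelled libraries, where 11.3% of all genes did. Without controls 1 and 4, an alternative chosen after the data had been seen, there were 26 (45.6%), 20 of them higher, against 17.5% of all genes, and still 0 at an adjusted p under 0.05. The groups of 31 genes did not overlap without controls 1 and 4 (37.6% of all genes), those of 16 without control 1 (19.6%) and those of 7 without replicate 1 of Dmp1Cre.EfnB2f/f (13.5%), beside 7 (11.3%) over the full set of 7 mice. Without replicate 1 of Dmp1Cre.EfnB2f/f there were 4, against 2.88%, and Adamts1, Timp3 and Mmp8 were not among them. Adam8, Mmp25, Mmp12 and Adamts9 had an unadjusted p under 0.05 with any 1 of the 7 libraries left out. They had been picked at that threshold in the same libraries, so this is not a separate test of them.

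**Figure D4:**
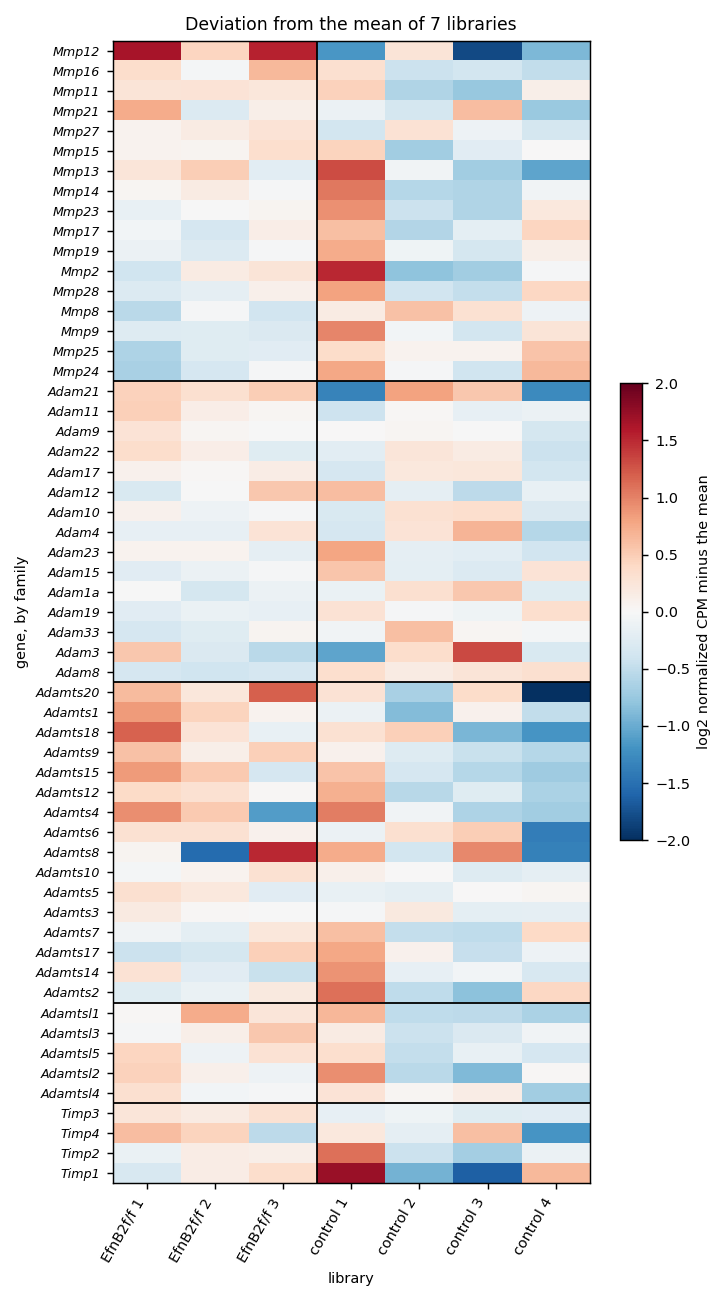
Deviation of each of the 57 genes tested in each library from the gene's mean over the 7 libraries, on the log2 scale of normalized CPM, with red for higher and blue for lower; colours end at -2 and 2, and the vertical line separates the 3 EfnB2f/f-labelled libraries from the 4 controls. The column of control 1 is red for Mmp13, Mmp14, Mmp2, Adamts2, Timp1 and Timp2, and the row of Timp3 is pale throughout with the groups on either side of 0.

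The study's own kind of fit gave more calls. With its limma pipeline, run without the day of collection, 15 of the 57 genes (26.3%) had an adjusted p under 0.05, 10 higher and 5 lower, against 15% of all genes, and 26 had an unadjusted p under 0.05, against 32.9% of all genes. This pipeline weights the libraries by quality, and the weights were 0.193 for control 1 and 0.168 for control 4 but 7.25 for replicate 2 of Dmp1Cre.EfnB2f/f. The 15 were Adam1a, Adam33, Adam4, Adam8, Adamts1, Adamts12, Adamts15, Adamts9, Adamtsl1, Mmp11, Mmp14, Mmp2, Mmp25, Timp2 and Timp3. For Mmp14, Mmp2 and Timp2 the direction was the opposite of that in edgeR, with log2 fold changes of 0.65, 0.81 and 0.59. For Adam8, Mmp25, Adamts1, Adamts9 and Timp3 the direction was the same in both.

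Other genes of the system showed 0 adjusted p under 0.05 in edgeR. Among 11 activators and convertases of the proteinase propeptides, 9 were tested. A negative log2 fold change was found for 8 of the 9, against 7341 of all 15084 genes tested. The 1 with an unadjusted p under 0.05 was Plaur, the urokinase receptor, at 59.0, 51.2 and 53.0 CPM in the EfnB2f/f-labelled libraries, and 80.3, 70.5, 78.1 and 83.4 CPM in the controls (log2 fold change -0.52, SE 0.14, unadjusted p = 0.00600). Its groups did not overlap, a pattern that 6.3% of all genes had in this direction. At an unadjusted p under 0.05, 5.03% of all genes were lower. Of 10 other inhibitors, among them Reck, which blocks MMPs at the membrane, 0 of 10 tested had an unadjusted p under 0.05, nor had any of 12 clearance and docking genes, 12 matrix substrates or the 10 tested of 13 other bone matrix proteinases. Of 13 substrates that ADAMs shed, 11 were tested: Efnb2 was higher, as given above, and Notch1 was lower, at 136, 133 and 149 CPM against 228, 162, 154 and 235 CPM (log2 fold change -0.48, SE 0.20, unadjusted p = 0.0430). Control 3 lay just above replicate 3 for Notch1. Of all genes, 9.67% had an unadjusted p under 0.05 in either direction, and Efnb2 was the gene targeted in these mice. The soluble products of shedding are not visible in mRNA levels.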

How the data were processed

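Cortical bone RNA of 3 Dmp1Cre.EfnB2f/f and 4 Dmp1Cre mice was sequenced (TruSeq RNA library, which does not mark strand, paired-end HiSeq reads). Per the labels and the methods, the authors called bases with bcl2fastq 2.17.1.14, mapped reads to mm10 with Rsubread, and deposited raw counts per Entrez gene from featureCounts with its inbuilt mm10 annotation, without normalization, filter or pooling. The strand setting of counting is not given in the sources used here. Depth was 17245556 to 22075778 counts per library. The deposited series table was not used, since the files per library hold the counts.

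Groups came from the labels. A gene was kept where 3 or more libraries reached 0.65 CPM (16302 of 27179), the classes that the study removed were left out (1218, from RefSeq gene types and symbols), and 15084 were tested with edgeR 4.0.16 (TMM, robust quasi-likelihood, R 4.3.3) with Benjamini-Hochberg adjustment over all of them. Standard errors were taken from the F statistic, as the size of the change over its root. Single values were compared with a two-sided exact permutation test of the difference of means over the 7 libraries. Apart from Efnb2, these were genes picked because their groups did not overlap, so the test is no separate support. The study's fit holds the day of collection as a block, which the labels do not give, so no day entered. The alternatives were library totals or RLE scaling, no low-count filter, all gene classes kept, DESeq2 1.42.0, limma 3.58.1 as in the study without the day (log2 CPM, prior count of 2), the replicate number or parent cross as a block, each library left out and, chosen after seeing the data, controls 1 and 4 left out. The fits were tested on simulated data. The p-values measure the spread between these mice, taken as independent. Mice of one genotype share parent crosses, and only the mixed cross holds both genotypes. Genotype and cross are therefore largely not separable.

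Genes given a test are Efnb2, the TIMPs, the 5 most abundant per kilobase of MMPs, ADAMs and ADAMTS with ADAMTS-like genes, those at an unadjusted p under 0.05 and those whose groups do not overlap. Plaur and Notch1 were named after their values were seen. The genes, role groups and lists were chosen with earlier results of these data known. Positions are from RefSeq (GRCm38.p6, the build of mm10, where all 84 genes were found) and exon overlaps from GENCODE. Reads were counted on the inbuilt annotation of featureCounts, so the shares of exon bases do not measure shares of the reads.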

Additional observations from a re-analysis of the deposited data

Results flagged for a closer look

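Among 37 sets of 4 control values examined (23 genes of these families, Efnb2 and 13 summed marker lists), 3 had 1 control far from the other 3, where chance gives about 1 in 20. These were marker sums and none was a gene of these families. The gap to the nearest control made up 0.928 of the range for the skeletal muscle markers (control 3, 26911 CPM, against 12391 to 13442 CPM in the other controls), 0.837 for the erythroid markers (control 4, 32841 CPM) and 0.932 for the tendon and periosteal fibroblast markers (control 1, 928 CPM). The 3 EfnB2f/f-labelled libraries are too few for this examination.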

How the results depend on the processing

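In edgeR the count of genes at an adjusted p under 0.05 was 0 under every scaling, filter, block and left-out library run, against 1 in DESeq2 and 15 in the limma pipeline. Each run tested 57 genes of these families, apart from the one without the low-count filter, which tested 84. The count at an unadjusted p under 0.05, 7 in the report, was 26 in the limma pipeline (45.6%, against 32.9% of all genes), 2 with the parent cross as a block (3.51%, against 2.05%), 26 without controls 1 and 4, and 4 (without replicate 1 of Dmp1Cre.EfnB2f/f) to 14 (without control 1) with 1 library left out. The count of genes whose groups do not overlap, also 7 (11.3% of all genes), was 31 without controls 1 and 4 (37.6% of all genes) and, with 1 library left out, 7 (without replicate 1 of Dmp1Cre.EfnB2f/f, 13.5% of all genes) to 16 (without control 1, 19.6% of all genes). The median over the 57 genes ran from -0.0067 (without replicate 1) to 0.33 (parent cross).

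Of the 23 named genes, 9 kept their sign in all 16 alternatives (Adam8, Adam11, Adam19, Adamts9, Adamts10, Mmp8, Mmp12, Mmp25 and Timp3). Signs turned as follows, in log2 fold changes. Library totals gave Adam10 0.012, Mmp14 0.025. The limma pipeline gave Adam15 0.049, Adam17 -0.11, Adamts2 0.41, Adamtsl4 -0.077, Mmp14 0.65, Mmp2 0.81, Timp1 0.91, Timp2 0.59. The parent cross as a block gave Adam15 0.25, Adam17 -0.075, Adamts1 -0.0049, Adamts2 1.01, Adamts5 -0.24, Adamtsl4 -0.17, Mmp14 0.58, Mmp2 0.95, Mmp9 0.082, Timp1 1.98, Timp2 0.80, Timp4 -1.12, in a fit where 1 mouse of each genotype shares a cross. The replicate number as a block gave Adamts2 0.032, Adamtsl4 -0.066, Mmp14 0.11, Mmp2 0.067, Timp1 0.37, Timp2 0.070, Timp4 -0.016, with 5 genes at an unadjusted p under 0.05. Same-numbered libraries had correlations of -0.14, 0.06 and -0.42 in their deviations from the group means. The highest of any pair was 0.48, for replicate 3 of Dmp1Cre.EfnB2f/f with control 4. Deviations from the mean of so few libraries depend on each other, so these values cannot show whether the numbers pair the libraries. Without controls 1 and 4 the values were Adam15 0.12, Adam17 -0.13, Adamts2 0.61, Mmp14 0.64, Mmp2 0.78, Timp1 1.34, Timp2 0.60. With 1 library left out, Adamtsl4 ran from -0.061 without control 4 to 0.22 without control 1, Mmp13 ran from -0.23 without control 4 to 0.75 without control 1, Adamts2 ran from -0.53 without control 3 to 0.15 without control 1. Likewise, Mmp14 ran from -0.25 without control 3 to 0.45 without control 1, Mmp2 ran from -0.54 without control 2 to 0.50 without control 1, Timp1 ran from -0.76 without control 3 to 0.40 without control 1. Then, Timp2 ran from -0.29 without control 3 to 0.44 without control 1, Adam10 ran from -0.15 without control 1 to 0.060 without control 3. The cause was not tested. Depth limits the genes with few reads, such as Mmp12.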
